A study of Mus musculus with 27 samples.

Results

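Lung RNA of C57L/J mice, the inbred strain designated radiation sensitive in the study, was compared between 3 mice that received 15 Gy of X-rays to the whole thorax and 3 sham-irradiated (0 Gy) mice, all killed 24 hours after exposure. These 6 arrays are 6 of the 27 in the series and were taken by their labels (strain and dose). All mice were wild-type females aged 10 to 12 weeks, and 1 Affymetrix mouse oligonucleotide array was hybridised per mouse with RNA of the right upper lobe, without pooling. The 3 C57L/J mice given 12.5 Gy and the C57BL/6J mice given 0 or 15 Gy were used only where a value is set beside those of the 15 Gy mice. Values are log2 of the deposited intensity for the brightest probe set of each of 18194 genes, and differences between doses are log2 changes, so that 1 unit is a doubling.

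Ionising radiation breaks DNA, and the transcription factor p53 answers by switching on genes that halt the cell cycle, dispose of damaged cells and feed back on p53 itself. Genes of DNA replication and mitosis are shut down in the same response. The promoters of many mitosis genes carry elements called CCAAT boxes and cell cycle genes homology regions (CHR). Lymphocytes, above all B cells and immature T cells, are among the most radiosensitive cells of the body, whereas most epithelial cells of the lung divide rarely.

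The promoters of both arms of this response are shown first, since many of the members described below move together. The windows come from RefSeq (GRCm38.p6) and reach from 250 bases before to 50 bases after each annotated start. A p53 element (a pair of adjacent p53 motifs with no spacer and at most 1 mismatch outside the C and G of each core) was present in 22 of 32851 promoters, or 0.067%. Among 22 promoters of 17 genes from a list of p53 targets for cell cycle arrest and feedback, 3 had it, those of Cdkn1a, Ccng1 and Gtse1, and none of the 37 promoters of the other p53 target lists did. The stretches that hold the element in Cdkn1a (chr17:29090829-29090978, plus strand, at the more upstream of its annotated starts) and Ccng1 (chr11:40755387-40755536, minus strand) read as follows from 5′ to 3′, with the element in capitals.
Cdkn1a: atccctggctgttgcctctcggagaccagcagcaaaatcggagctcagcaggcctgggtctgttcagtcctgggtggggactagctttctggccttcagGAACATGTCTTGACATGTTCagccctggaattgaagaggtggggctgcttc
Ccng1: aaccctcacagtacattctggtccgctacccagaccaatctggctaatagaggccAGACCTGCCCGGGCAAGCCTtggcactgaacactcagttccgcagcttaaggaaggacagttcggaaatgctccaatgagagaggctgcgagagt

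Of 35 promoters of 33 mitosis genes, 28 (80%) held CCAAT on either strand, 27 (77.1%) held the CHR (TTTGAA on either strand) and 24 (68.6%) held both. Over all promoters the shares were 37.4%, 17.9% and 6.95%. CCAAT was also held by 14 of the 22 promoters of p53 targets for arrest and feedback (63.6%), and the CHR by 0. Over the 59 promoters of the 3 p53 lists together the shares were 45.8%, 10.2% and 5.08%. The Ccng1 stretch above holds 2 CCAAT, left in lower case. A CCAAT and a CHR overlapped in 1 of the mitosis promoters and in 47 of all promoters. The 150 bases before the start of Ube2c (chr2:164769779-164769928, plus strand) and Mki67 (chr7:135716380-135716529, minus strand) are given with both elements in capitals, because their elements lie before the start and both genes passed as lower without replicate 3, though not with it. A match of letters describes the window and is not evidence of a bound factor.
Ube2c: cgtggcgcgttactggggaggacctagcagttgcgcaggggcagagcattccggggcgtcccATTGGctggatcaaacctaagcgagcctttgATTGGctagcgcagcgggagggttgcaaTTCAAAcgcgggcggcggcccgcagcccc
Mki67: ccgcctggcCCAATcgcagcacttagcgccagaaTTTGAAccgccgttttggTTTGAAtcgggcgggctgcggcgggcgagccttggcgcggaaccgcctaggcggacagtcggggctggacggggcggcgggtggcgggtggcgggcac

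All 6 arrays carried the transcripts that define lung, and the third 15 Gy array also carried those of other tissues. Surfactant protein C (Sftpc) ran from 14.51 to 14.83 and the club cell gene Scgb1a1 from 14.83 to 15.23 over the 6 arrays. The mean of 10 skeletal muscle genes was 13.95 on 15 Gy replicate 3 and 5.64 to 6.38 on the other 5 arrays. Thyroglobulin (Tg) was 14.3 on replicate 3 against at most 5.14, keratin 4 (Krt4) of squamous epithelium 14.47 against at most 6.4, and the lymph node venule gene Glycam1 12.38 against at most 2.26. Replicate 3 was therefore the array with muscle, thyroid, squamous and lymph node transcripts, and in all 344 genes lay at least 3 log2 units above the mean of 15 Gy replicates 1 and 2. Rag1, which marks developing lymphocytes and the thymus, was 10.67 there, 7.48 on sham replicate 3 and at most 2.42 on the other 4 arrays. Adiponectin (Adipoq), from fat, was uneven among the sham mice too, at 6.51 to 11.23, and was 13.9 on replicate 3. The endothelial marker mean was 11.29 on replicate 3 and 12.03 to 12.57 elsewhere. Values are from all 6 arrays unless they are said to be without 15 Gy replicate 3. Without it 91 genes lost their call, and those among the genes described below are named. Whether the added tissue produced a difference between values with and without it was not tested.

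**Figure D1:**
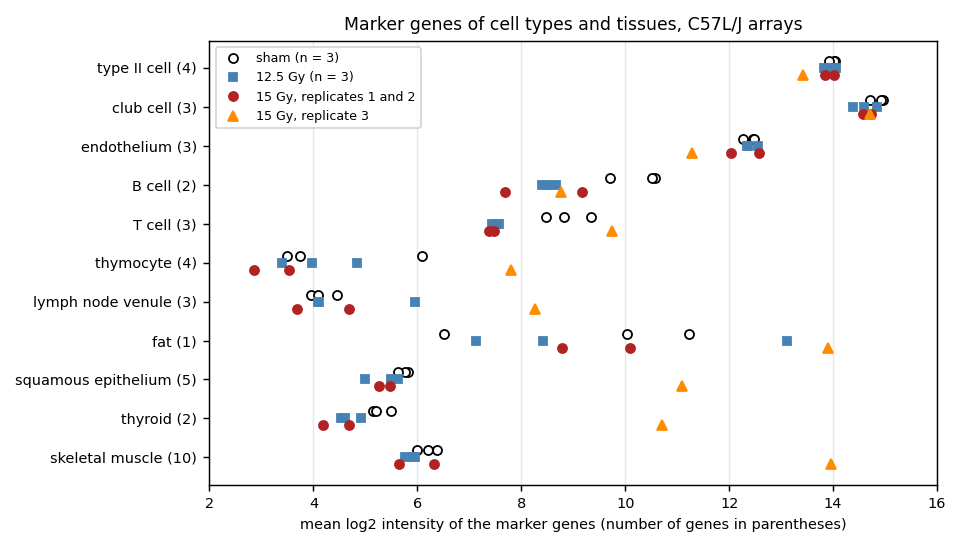
Mean log2 intensity of marker genes of each cell type or tissue (rows, number of genes in parentheses) on the 9 C57L/J arrays: sham as open circles, 12.5 Gy as squares, 15 Gy replicates 1 and 2 as filled circles and 15 Gy replicate 3 as a triangle. The skeletal muscle mean of replicate 3 is 13.95 against at most 6.38 in sham, and its T cell mean of 9.74 lies above all sham arrays.

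With all 6 arrays, 338 of 18194 genes had an unadjusted p under 0.01 by limma, the limit that the study used: 141 were higher at 15 Gy (0.775% of the genes tested) and 197 lower (1.08%). About 182 genes would pass by chance alone. Without replicate 3, 561 genes passed, 176 higher (0.967%) and 385 lower (2.12%). Of the genes, 247 passed both ways in the same direction. After Benjamini-Hochberg adjustment by limma 0 genes were under 0.05 either way, and the lowest adjusted p was 0.0534 with 6 arrays and 0.0965 with 5. The random variance test also gave 0, and at an unadjusted p under 0.05 limma counted 1355 and 1777 genes. Leaving out sham replicate 2 instead gave 119 higher and 95 lower genes, and leaving out sham replicate 3 gave 132 and 96. Centring arrays on the median in place of the deposited scaling gave 158 higher and 143 lower genes with 6 arrays. Below, "rose" and "fell" are used of genes at an unadjusted p under 0.01 only. Counts of list members below stand against the shares of all genes, 0.775% higher and 1.08% lower with 6 arrays. Without replicate 3 these shares are 0.967% and 2.12%. The median change over all genes was -0.01 with 6 arrays and 0 without replicate 3. With 3 mice in each group the smallest exact permutation p is 0.1, so limma's fit, which borrows the spread across genes, was used. SE is the standard error of that fit. The 15 Gy and sham values did not overlap for 16.7% of all genes. In both directions 194 genes passed both ways, did not overlap and had a group mean of at least 6, and the largest changes named below were taken from them.

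Cdkn1a, which encodes the cyclin-dependent kinase inhibitor p21 and carries the first element printed above, was 10.35, 9.85 and 9.91 in the sham mice and 13.15, 13.59 and 12.73 at 15 Gy. It is among the genes chosen for groups that do not overlap. Its mean change was 3.12 ± 0.27 (SE; 95% interval 2.45 to 3.79; adjusted p = 0.125), or 8.69-fold. Ccng1, the cyclin G1 gene that recruits a phosphatase to the p53 regulator Mdm2, was 10.85, 11.08 and 11.19 in sham and 13.55, 13.58 and 13.21 after 15 Gy, a rise of 2.4 (SE 0.18). Phlda3, an inhibitor of Akt signalling, was 10.26, 10.29 and 10.55 in sham and 12.39, 12.66 and 12.22 at 15 Gy, a rise of 2.06 (SE 0.18). Replicate 3 was the lowest of the irradiated mice for all 3 of these genes. Gtse1, the other gene with the p53 element, rose by 1.66 (SE 0.18), and Psrc1, a microtubule-associated gene, by 1.69 (SE 0.25).

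The p53 targets for arrest and feedback were the list in which the largest number of genes rose. With 6 arrays 7 of 19 measured genes rose (36.8%, against 0.775% of all genes). Without replicate 3, 10 rose (52.6%, against 0.967%), and none fell in either. The median over the 19 genes was 0.74, and 0.78 without replicate 3. Mdm2, the ubiquitin ligase that degrades p53, was 10.33, 10.32 and 10.06 in sham and 11.25, 11.2 and 10.48 at 15 Gy. Its change was 0.74 (SE 0.25) with 6 arrays, and it rose by 0.99 (SE 0.14) without replicate 3, the array closest to the sham mice. Genes of this list with changes under 0.25 in size included Sesn1, Plk2, Gadd45a and Rprm, the first of them at -0.22 (SE 0.14).

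Among the p53 targets for cell death and death receptors, 4 of 14 rose with 6 arrays and 6 without replicate 3 (median 0.52 and 0.66). With sham replicate 1, 2 or 3 left out instead, 2, 3 and 2 rose. Eda2r, a receptor of the tumour necrosis factor receptor family, was 5.97, 6.02 and 6.74 in sham and 9.44, 9.1 and 8.33 at 15 Gy, a rise of 2.71 (SE 0.36). Aen, an apoptosis-enhancing nuclease, rose by 1.3 (SE 0.26), Bbc3, which encodes the pro-apoptotic protein Puma, by 1.12 (SE 0.19), and Ei24 by 0.94 (SE 0.24). These rises were between 1.18 and 3.03 without replicate 3. Fas did not pass in either fit, at 0.4 (SE 0.26) and, without replicate 3, 0.63 (SE 0.2).

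Metabolic and other radiation-induced p53 genes followed the same pattern, with 6 of 18 higher with 6 arrays, 8 without replicate 3 and none lower. With any 1 sham array left out instead, 4 rose. Ces2e, a carboxylesterase, was 5.42, 5.56 and 6.24 in sham and 8.6, 9.01 and 7.89 at 15 Gy (change 2.76, SE 0.36). Ddias, whose product guards damaged cells against apoptosis, rose by 2.54 (SE 0.29), Celf5, an RNA-binding protein gene, by 2.44 (SE 0.35) and Dglucy, a D-glutamate cyclase gene, by 2.19 (SE 0.22). These 4 genes are among the largest rises, which were chosen for groups that do not overlap.

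**Figure D2:**
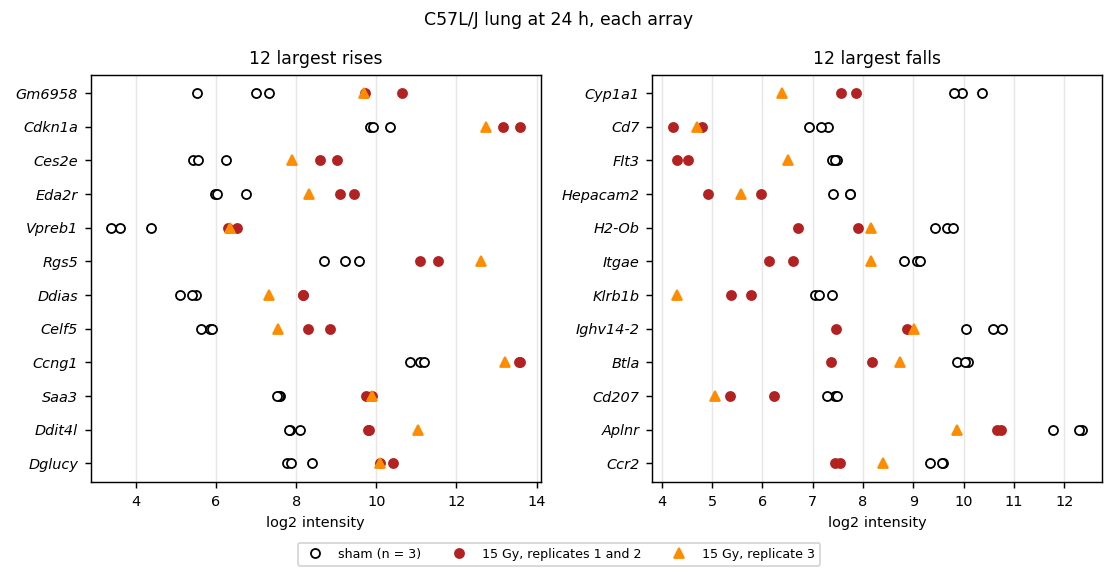
Log2 intensity on each of the 6 arrays (horizontal axis) for the 12 largest rises (left) and 12 largest falls (right) among the 194 genes that passed with and without replicate 3, did not overlap and had a group mean of at least 6; sham mice are open circles, 15 Gy replicates 1 and 2 filled circles and 15 Gy replicate 3 a triangle. The genes were chosen for groups that do not overlap, as the points show, with Cdkn1a from 9.85 to 10.35 in sham and from 12.73 to 13.59 at 15 Gy.

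The largest rise among these 194 genes was that of Gm6958, a predicted gene, from 6.99, 5.52 and 7.33 in sham to 10.64, 9.72 and 9.7 at 15 Gy (change 3.41, SE 0.54). Saa3, an acute phase gene of epithelial cells and macrophages, had the lowest p of any gene: it was 7.59, 7.56 and 7.53 in sham and 9.75, 9.9 and 9.89 at 15 Gy, a rise of 2.29 ± 0.13 (SE; adjusted p = 0.0534). The spread within each dose was under 0.2 units. Rgs5, a pericyte gene that dampens G protein signalling, was 9.56, 9.21 and 8.69 in sham and 11.08, 11.55 and 12.62 at 15 Gy, and Ddit4l, an inhibitor of mTOR signalling, was 8.1, 7.85 and 7.83 in sham and 9.78, 9.81 and 11.04 at 15 Gy. Both were highest on replicate 3, and without it they rose by 2.16 (SE 0.32) and 1.87 (SE 0.14). Vpreb1, a component of the surrogate light chain of developing B cells, rose by 2.6 (SE 0.28) from a low level of 3.38, 3.61 and 4.38 to 6.31, 6.52 and 6.35.

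Of 39 measured genes of mitosis 5 fell with 6 arrays (12.8%, against 1.08% of all genes) and none rose. Without replicate 3, 14 fell (35.9%, against 2.12%). The medians were -0.65 and -0.73, and 9 genes lay above 0 with 6 arrays and 10 without replicate 3. Dlgap5, a spindle assembly gene, was 5.91, 6.22 and 4.74 in sham and 2.67, 3.22 and 3.73 at 15 Gy, a change of -2.42 (SE 0.47) near the bottom of the scale. Mki67, the proliferation marker whose promoter is printed above, was 8.42, 8.13 and 8.3 in sham and 5.59, 5.67 and 8.11 at 15 Gy. Replicate 3 thus lay just below the lowest sham mouse while the other irradiated mice were more than 2 units lower, and the change was -1.82 (SE 0.7) with 6 arrays and -2.65 (SE 0.14) without it. Ube2c, the ubiquitin-conjugating enzyme of the anaphase-promoting complex, showed the same split, at 7.47, 7.45 and 7.86 in sham and 5.48, 6.14 and 7.56 at 15 Gy, with a change of -1.79 (SE 0.27) without replicate 3. Nusap1, a spindle protein gene, fell by 0.96 (SE 0.22), Racgap1, needed for cytokinesis, by 0.9 (SE 0.24) and Cdca3 by 0.87 (SE 0.21) with 6 arrays. Cdca3 depended on the probe set, since its most variable probe set was higher by 0.58.

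In the list of DNA replication and S phase genes 5 of 31 fell with 6 arrays, 8 without replicate 3, and none rose. Cdt1, which licenses replication origins, was 9.45, 9.53 and 9.71 in sham and 8.41, 8.55 and 9.13 at 15 Gy, a change of -0.87 (SE 0.23) that was 1.17 by its most variable probe set. Mcm3, a subunit of the replicative helicase, fell by 0.7 (SE 0.14), and Pole, a DNA polymerase subunit, by 0.94 (SE 0.23). E2f1 passed with 6 arrays (-0.64, SE 0.17) and not without replicate 3 (-0.56, SE 0.16), and its direction turned with the most variable probe set. Tk1, the thymidine kinase of dividing cells, was -1.81 (SE 0.8) with 6 arrays, and fell by 2.64 (SE 0.5) without replicate 3. Leaving out any 1 of the other 5 arrays instead left 0 to 2 mitosis genes and 0 to 3 replication genes below the limit. Of 22 DNA repair genes 0 passed in either direction by limma or the random variance test, with 4 at a limma p under 0.05 with 6 arrays. Rag1 was high on both arrays numbered 3, and without both of them 10 mitosis genes fell and 9 of the 19 arrest genes rose. For lists described below, 8 B cell, 8 T cell, 1 T helper, 1 natural killer cell, 5 dendritic cell and 8 MHC class II genes fell without both. Without 15 Gy replicate 3 alone these counts were 13, 11, 4, 5, 7 and 8.

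B cell genes were lower in the irradiated mice. Of 25 measured genes 10 fell with 6 arrays (40%, against 1.08% of all genes), 13 without replicate 3, and all 25 had a change below 0 in both fits, with medians of -1.23 and -1.54. Cd79a, part of the signalling unit of the B cell receptor, was 9.11, 9.79 and 9.79 in sham and 6.72, 8.33 and 7.78 at 15 Gy, a change of -1.95 (SE 0.45). Its partner Cd79b fell by 1.59 (SE 0.36). Btla, an inhibitory receptor of lymphocytes, was 9.87, 10.08 and 10.02 in sham and 7.37, 8.17 and 8.74 at 15 Gy, a change of -1.9 (SE 0.36). Every irradiated mouse was below every sham mouse for these genes, by choice in the case of Btla, and irradiated mouse 1 was the lowest. Fcrl1, a receptor of mature B cells, was 7.34, 7.77 and 7.03 in sham and 4.74, 4.21 and 6.48 at 15 Gy, and fell by 2.91 (SE 0.29) without replicate 3. Cd79a and Cd79b no longer passed with 5 arrays, at -2.04 (SE 0.55) and -1.65 (SE 0.43), and without sham replicate 2 or sham replicate 3 only 4 B cell genes stayed under the limit. In lung tissue fewer B cells and less RNA per cell cannot be told apart. The immunoglobulin gene segment Ighv14-2 fell by 2.01 (SE 0.47), but 0 of 12 other immunoglobulin and plasma cell genes fell with 6 arrays by limma or the random variance test, also at p under 0.05, and 2 without replicate 3.

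MHC class II genes, through which B cells, dendritic cells and macrophages present antigen, fell in 5 of 11 cases with 6 arrays and in 8 without replicate 3 (medians -1.04 and -1.2). Over all genes 1.08% and 2.12% fell. Leaving out sham replicate 2 or sham replicate 3 instead left 2 and 1 of these genes under the limit. H2-Ob, which belongs to a modulator of peptide loading and is expressed in B cells, was 9.43, 9.66 and 9.79 in sham and 6.71, 7.89 and 8.16 at 15 Gy, a change of -2.04 (SE 0.4). H2-Ab1, a chain of the main class II molecule, was 11.97, 12 and 12.09 in sham and 10.57, 10.59 and 11.31 at 15 Gy, a change of -1.19 (SE 0.24). Ciita, the master regulator of class II transcription, fell by 1.04 (SE 0.21), and H2-DMa, which loads peptides, by 1.05 (SE 0.21). The brightest probe set of H2-DMa carries that fall, while its most variable probe set was higher by 0.65. Of the 13 class I and immunoproteasome genes 0 passed in either fit by limma or the random variance test, with 1 at a limma p under 0.05.

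T cell genes were low in irradiated mice 1 and 2 and high in irradiated mouse 3. Only 1 of 23 measured genes fell with 6 arrays (4.35%, against 1.08% of all genes), and 11 without replicate 3 (47.8%, against 2.12%). The median moved from -0.57 to -1.15. Cd3d, a chain of the T cell receptor complex, was 9.15, 9.46 and 9.85 in sham and 7.51, 8.04 and 10.18 at 15 Gy, so replicate 3 exceeded all sham mice. The change was -0.91 (SE 0.71) with 6 arrays, with a 95% interval of -2.66 to 0.84, and -1.71 (SE 0.28) without replicate 3. Cd6, a T cell adhesion receptor, was 6.49, 6.87 and 6.79 in sham and 2.58, 3.73 and 8.04 at 15 Gy, and fell by 3.56 (SE 0.38) without replicate 3. Cd8b1 fell by 2.45 (SE 0.28) in that fit. Replicate 3 is also the array with Rag1 at 10.67 and Glycam1 at 12.38, and the part of those transcripts in its T cell values was not tested. Itgae, an integrin of T cells and dendritic cells that reside in epithelia, was the member that fell in both fits, from 8.81, 9.07 and 9.13 to 6.61, 6.13 and 8.16 (change -2.03, SE 0.53).
Among regulators of T helper and regulatory T cells 1 of 20 genes fell with 6 arrays, the interleukin 2 receptor gene Il2rb (by 0.6, SE 0.16), and 4 without replicate 3. These 4 were Il2rb, Il10ra, Il21r and Stat4, with changes of -1.19 to -0.61 in the fit without it.

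**Figure D3:**
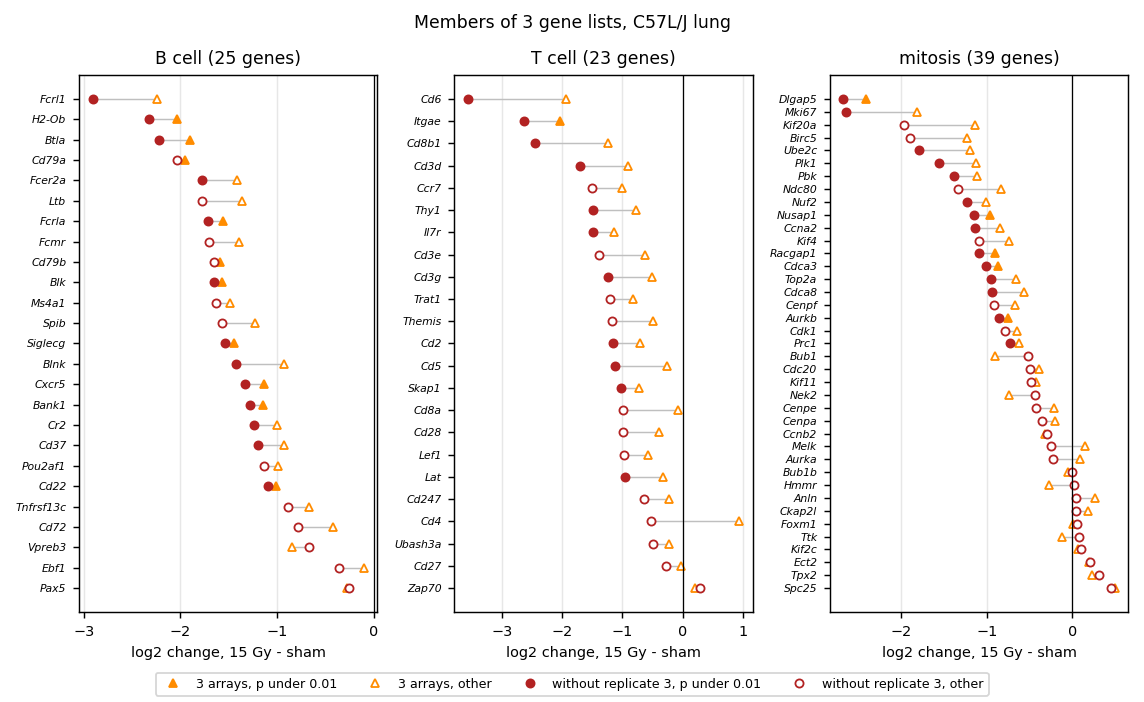
Log2 change of every measured gene of the B cell, T cell and mitosis lists at 15 Gy against sham, with all 3 irradiated arrays (triangles) and without replicate 3 (circles); filled symbols have an unadjusted limma p under 0.01. The 25 B cell genes lie below 0 both ways, whereas most T cell genes move left when replicate 3 is left out and 11 then pass the limit.

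Cd7, a receptor of T and natural killer cells, was 7.31, 6.92 and 7.16 in sham and 4.22, 4.8 and 4.69 at 15 Gy, a change of -2.56 ± 0.21 (SE; adjusted p = 0.125) in which replicate 3 did not stand apart. Of 15 natural killer cell and cytotoxic granule genes 4 fell with 6 arrays and 5 without replicate 3, with medians of -0.93 and -0.89. With sham replicate 1, 2 or 3 left out instead, 2, 3 and 1 of them fell. Klre1, a receptor of these cells, was 7.11, 6.75 and 7.27 in sham and 6.01, 5.93 and 5.84 at 15 Gy, a change of -1.12 (SE 0.18). Klrd1, the common partner of inhibitory and activating receptors, fell by 1.33 (SE 0.26), Nkg7, a granule protein gene, by 0.93 (SE 0.22), and Klrg1 by 0.69 (SE 0.14). Klrb1b, which is not in this list, fell by 2.02 (SE 0.39) and is among the largest falls, chosen for groups that do not overlap. For Klre1 and Klrb1b replicate 3 was the lowest of the irradiated arrays. Ccl5, a chemokine of cytotoxic lymphocytes, followed the T cell pattern, at 10.4, 10.34 and 10.58 in sham and 8.46, 9.33 and 10.54 at 15 Gy. It fell by 1.54 (SE 0.29) without replicate 3 only.

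Dendritic cell genes fell in 6 of 17 cases with 6 arrays and in 7 without replicate 3, with medians of -0.59 and -0.77. Over all genes 1.08% and 2.12% fell. With sham replicate 1, 2 or 3 left out instead, 3, 3 and 2 of the dendritic cell genes fell. Flt3, the growth factor receptor on which dendritic cells depend, was 7.48, 7.38 and 7.44 in sham and 4.3, 4.53 and 6.51 at 15 Gy, a change of -2.32 (SE 0.59) that was -3.02 (SE 0.14) without replicate 3. Xcr1, the chemokine receptor of cross-presenting dendritic cells, was 7.27, 7.32 and 7.31 in sham and 5.7, 5.98 and 6.24 at 15 Gy (change -1.33, SE 0.18). Ccl17, a chemokine that these cells make, fell by 1.37 (SE 0.19). Cd207, the langerin gene, is not in this list. It fell by 1.86 (SE 0.32) and is among the largest falls, chosen for groups that do not overlap. Batf3, the transcription factor of the same lineage, was 7.22, 7.22 and 7.34 in sham and 6.44, 6.47 and 7.28 at 15 Gy, and fell by 0.81 (SE 0.12) without replicate 3 only. Replicate 3 thus came close to the sham level for Batf3. It was low with the other irradiated mice for Xcr1, Ccl17 (6.45, 5.98 and 6.45) and Cd207 (6.22, 5.35 and 5.06). Cd209a passed with 6 arrays (-1.08, SE 0.25) and not without replicate 3 (-0.96, SE 0.27).

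In the monocyte, interstitial macrophage and complement list 2 of 25 genes fell both with and without replicate 3. They were Ccr2, the receptor that calls monocytes out of the bone marrow (9.33, 9.58 and 9.57 in sham against 7.45, 7.54 and 8.4 at 15 Gy; change -1.7, SE 0.29), and the fractalkine receptor Cx3cr1 (change -1.28, SE 0.25). Of 18 alveolar macrophage genes 0 passed in either fit by limma or the random variance test, with 4 and 2 at a limma p under 0.05 with and without replicate 3. The same holds for 21 neutrophil genes, with 0 and 1 at p under 0.05.

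Retnla, which encodes resistin-like molecule alpha and is the gene that the study followed further, was 12.1, 12.36 and 11.77 in the sham mice and 13.75, 13.28 and 12.89 at 15 Gy. The groups did not overlap, and the rise was 1.23 ± 0.28 (SE; 95% interval 0.53 to 1.92; adjusted p = 0.45), or 2.34-fold. Without replicate 3, the lowest irradiated array, it was 1.44 (SE 0.25). The call was lost when sham replicate 1 (1.24), sham replicate 3 (1.07), 15 Gy replicate 1 (1) or 15 Gy replicate 2 (1.24) was left out instead. It was the 1 gene of 15 in the list of resistin-like and alternative macrophage activation genes that rose, and Pdcd1lg2 and Mgl2, an immune checkpoint ligand and a lectin of macrophages and dendritic cells, fell by 0.95 and 0.76 without replicate 3.
Of the other genes that the study named across doses, 12 were measured here beside Retnla, and Cdkn1a alone of these passed with 6 arrays. Auts2, a neurodevelopmental gene, was 8.87, 8.93 and 8.93 in sham and 8.55, 8.33 and 8.68 at 15 Gy (change -0.39, 95% interval -0.77 to -0.02, SE 0.15). Gria1, a glutamate receptor subunit, was 8.58, 8.61 and 8.52 in sham and 8.87, 9.05 and 7.28 at 15 Gy. Its sign depended on replicate 3, with -0.17 (SE 0.48) with it and 0.39 (SE 0.13) without. Rgs4, like Rgs5 a regulator of G protein signalling, fell by 0.59 (SE 0.12) without replicate 3 and was -0.38 (SE 0.22) with it. Changes of Specc1, Zfp319, Cyp26b1, Pon1, Ms4a6d, Ighm and C1qb lay between -1.61 and 0.92, and none passed in either fit.

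Cyp1a1, the xenobiotic-metabolising enzyme that the aryl hydrocarbon receptor induces, had the largest fall of the genes that passed both ways without overlap at a group mean of at least 6. It was 9.97, 9.8 and 10.37 in sham and 7.85, 7.57 and 6.38 at 15 Gy, a change of -2.78 ± 0.42 (SE; adjusted p = 0.231). Hepacam2 fell by 2.14 (SE 0.3) and was 5.98, 4.92 and 5.57 after 15 Gy against 7.75, 7.4 and 7.75 in sham. Both are among the genes chosen for groups that do not overlap, so the separation of their values was set by that choice.

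The endothelial marker mean was lowest on replicate 3, and some capillary genes fell with and without it. In the list of the apelin system and capillary endothelium 3 of 25 genes fell with 6 arrays and 4 without replicate 3, and the median was -0.53 and -0.27. Leaving out any 1 sham array instead left 1 gene under the limit. Aplnr, the apelin receptor, was 11.78, 12.35 and 12.3 in sham and 10.74, 10.67 and 9.87 at 15 Gy (change -1.72, SE 0.3). Car4, the carbonic anhydrase of lung capillaries, was 11.95, 12.06 and 12 in sham and 10.97, 11.02 and 10.13 at 15 Gy, a change of -1.3 (SE 0.27) that was -1.01 (SE 0.12) without replicate 3. Emcn, endomucin of the capillary surface, fell by 0.69 (SE 0.15), and Gpihbp1, which anchors lipoprotein lipase there, fell by 0.79 (SE 0.17) without replicate 3. The pan-endothelial genes Cdh5 and Pecam1 did not pass, at -0.19 (SE 0.2) and -0.36 (SE 0.31) without replicate 3.

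Epithelial genes of the airways and alveoli changed little. With 6 arrays 0 of 15 type I cell, 19 type II cell, 19 club cell and 17 ciliated cell genes passed by limma or the random variance test, and 2 had a limma p under 0.05. All 15 type I genes were below 0 with 6 arrays (median -0.33), whereas 6 were above and 9 below 0 without replicate 3 (median -0.08). The exception without replicate 3 was Hc, complement C5, listed with the type II cell genes, which fell by 0.57 (SE 0.13). Sftpc changed by -0.13 (95% interval -0.47 to 0.22) and Scgb1a1 by -0.22 (-0.58 to 0.14). Of 13 neuroendocrine genes Uchl1, a ubiquitin hydrolase, rose by 1.18 (SE 0.18), and Grp, gastrin-releasing peptide, fell by 1.66 (SE 0.31) without replicate 3, on which it was 9.66 against 6.84 and 5.96 in the other irradiated mice.

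**Figure D4:**
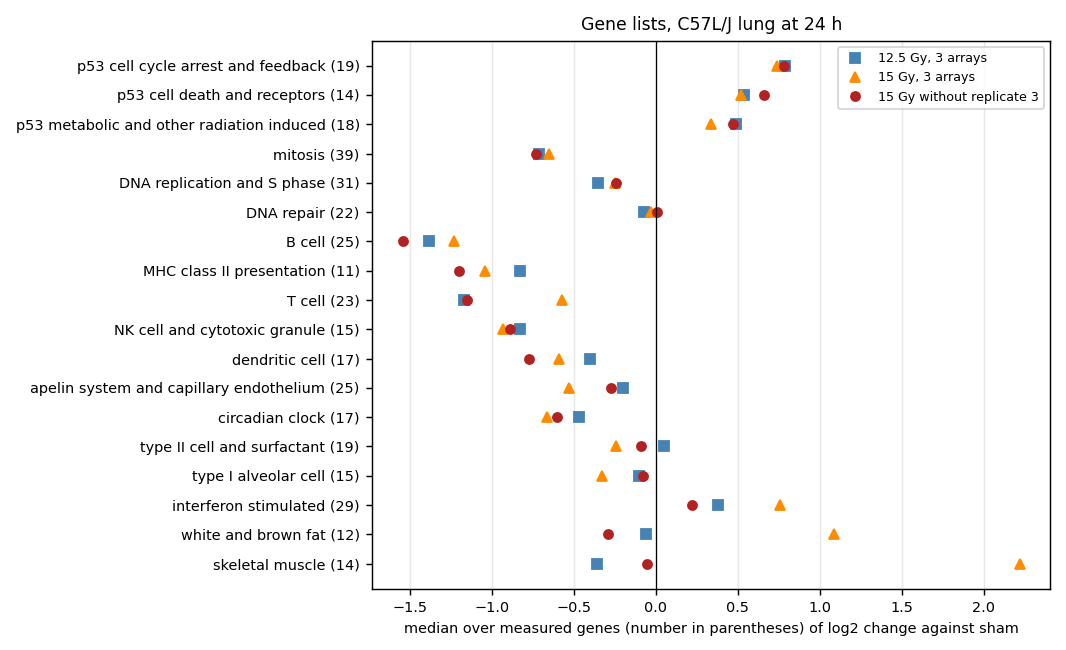
Median log2 change against sham over the measured genes of each list (rows, number of genes in parentheses) at 15 Gy with 3 arrays (triangles), at 15 Gy without replicate 3 (circles) and at 12.5 Gy (squares). The p53 lists lie at 0.34 to 0.79, the B cell list at -1.23 to -1.54, and the skeletal muscle list moves from 2.22 to -0.05 when replicate 3 is left out.

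Clock genes changed in both directions. Of 17 measured genes 4 fell and 1 rose with 6 arrays, and 4 fell without replicate 3, with medians of -0.66 and -0.6. With any 1 sham array left out instead, 2 fell. Ciart, a repressor of the core clock, was 9.11, 8.79 and 9.01 in sham and 8.12, 7.65 and 7.57 at 15 Gy (change -1.19, SE 0.21). Tef, an output transcription factor, fell by 0.87 (SE 0.15), and Bhlhe40, a repressor, was 11.37, 11.38 and 11.29 in sham and 10.51, 10.04 and 10.77 at 15 Gy (change -0.91, SE 0.22). The output gene Dbp fell by 1.71 (SE 0.34) without replicate 3. Npas2, an activator that partners Bmal1, was the riser and did not pass without replicate 3 (1.69, SE 0.47). It went from 5.24, 5.39 and 4.52 to 6.14, 7.34 and 7.14 (change 1.82, SE 0.4).

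Stress and remodelling lists held single changes. Of 26 genes of the NRF2 antioxidant response 2 rose and 1 fell, and without replicate 3, 1 rose and 1 fell. Srxn1, which repairs oxidised peroxiredoxins, rose by 0.69 (SE 0.14), and Osgin1 was 9.08, 9.21 and 9.04 in sham and 8.05, 7.81 and 8 at 15 Gy, a change of -1.15 (SE 0.14). The other riser, the cystine transporter gene Slc7a11 (change 0.8, SE 0.2), did not pass without replicate 3 (0.82, SE 0.23) and had a change of -0.57 by its most variable probe set. Among 27 matrix and fibrosis genes Mmp2, a gelatinase, rose by 0.81 (SE 0.15) and Timp1, an inhibitor of such enzymes, by 0.66 (SE 0.14), and both also rose without replicate 3. Of 22 hypoxia response genes 2 rose, Adm, the vasodilator adrenomedullin (by 1.04, SE 0.19), and Ddit4, an mTOR inhibitor (by 1.21, SE 0.29). Of 29 cytokines and growth factors 1 rose, Il6, from 2.19, 1.51 and 3.73 to 5.43, 4.27 and 5.43 (SE 0.64), levels below the limit of 6 used for naming genes. Of 16 erythroid genes 2 fell, Bpgm (by 1.02, SE 0.25) and the mitochondrial iron importer gene Slc25a37 (by 0.79, SE 0.14). Of 13 mast cell and basophil genes 1 rose, the IgE receptor gene Ms4a2 (by 0.93, SE 0.24). Without replicate 3 the calls of Ddit4 (1.23, SE 0.35), Il6 (2.37, SE 0.77), Bpgm (-1.01, SE 0.29) and Ms4a2 (0.84, SE 0.26) were lost, and those of Adm and Slc25a37 were not.

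Interferon-stimulated genes depended on replicate 3. With 6 arrays 28 of 29 genes were above 0 and the median was 0.76, but 0 passed by limma or the random variance test, with 4 at p under 0.05. Without replicate 3 the median was 0.22, and Ifi27l2a alone rose, by 0.9 (SE 0.14). It was 11.05, 10.77 and 10.94 in sham and 11.81, 11.84 and 13.81 at 15 Gy. Fat genes moved in the same way, with 12 of 12 above 0 with 6 arrays and 3 of 12 without replicate 3, and 0 passing. In the skeletal muscle list 14 of 14 genes were above 0 with 6 arrays and 0 passed, and the signal was on 1 array. Tnni2, a fast muscle troponin gene, was 7.55, 7.11 and 7.26 in sham and 6.27, 6.51 and 14.25 at 15 Gy. It fell by 0.92 (SE 0.19) without replicate 3, and parathyroid hormone (Pth), at 14.49 on replicate 3, was -2.89 (SE 0.64).
Single members of further lists that passed with 6 arrays were Ddit4 in the stress hormone list and Ccl17 among chemokines. Without replicate 3 Ccl17 passed and Ddit4 did not. Ccl5 among chemokines and Cd8b1 among immature thymocyte genes passed only in that fit. With 6 arrays 0 genes passed, by limma or the random variance test, in the lists of endothelial adhesion, renin and angiotensin, platelets, cardiac muscle, cholesterol synthesis, retinoic acid, heat shock, squamous epithelium and lymph node venules, with at most 4 of a list at a limma p under 0.05.

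The 12.5 Gy mice were compared with the same sham mice, so their values are given side by side with those at 15 Gy. At 12.5 Gy 304 genes rose (1.67%) and 518 fell (2.85%). Cdkn1a changed by 3.3 at 12.5 Gy and by 3.12 at 15 Gy, Ccng1 by 2.34 and 2.4, and Retnla by 1.46 and 1.23. In the B cell list 20 of 25 genes fell at 12.5 Gy against 10 at 15 Gy, in the T cell list 17 of 23 against 1, or 11 without replicate 3, and in the mitosis list 13 of 39 against 5, or 14 without replicate 3. These counts were not tested against each other, and the doses were compared gene by gene.
Between 15 and 12.5 Gy 115 genes had a p under 0.01 (0.632%), 78 higher and 37 lower at 15 Gy, and 180 without replicate 3 (0.989%), near the number that chance gives. By limma 0 had an adjusted p under 0.05 with or without replicate 3, as by the random variance test with it, with 572 and 758 genes at an unadjusted limma p under 0.05. Median-centring gave 59 higher and 42 lower, and quantile normalisation 59 and 45. No gene of the p53, mitosis or T cell lists was among them in either fit. Of the genes described above Cd7 and Osgin1 were among the 115. At 12.5 Gy Cd7 was 6.46, 6.94 and 6.26, above all 15 Gy values and with its highest value inside the sham range, and the difference between doses was -1.98. Osgin1 was intermediate too, at 8.54, 8.69 and 8.62, and differed between doses by -0.66. Fcrl1 and H2-Ab1 were lower at 15 than at 12.5 Gy only without replicate 3. Cyp26b1, which the study named, was higher by 1.42 at 15 Gy, also only without replicate 3. It was 9.24 and 9.91 there against 7.9, 7.97 and 8.6 at 12.5 Gy, all within the sham range of 6.97 to 10. With replicate 3 included, the difference between doses was -0.18 for Cdkn1a, which was 13.33, 13.15 and 13.52 at 12.5 Gy. It was -0.23 for Retnla, which was 13.36, 13.62 and 13.65 at that dose. Saa3 was less even at 12.5 Gy, at 11.87, 9.08 and 8.78.

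C57BL/6J mice, the strain that the study designated radiation resistant, received the same 15 Gy. Skeletal muscle transcripts were present on 2 of their 3 irradiated arrays and on 0 of their sham arrays. The change by 15 Gy differed between strains at p under 0.01 for 134 genes (0.737%). Leaving out the arrays that carried muscle keeps only 1 irradiated C57BL/6J mouse, so only sizes are given for that fit below. By limma and the random variance test 0 of these had an adjusted p under 0.05, and 646 genes had an unadjusted limma p under 0.05. Of the 134 genes 63 changed more upward in C57L/J, and 93 of 138 did so after median-centring and 93 of 145 after quantile normalisation. Cdkn1a rose by 3.12 in C57L/J and by 3.06 in C57BL/6J (adjusted p = 1 for the difference), and Retnla by 1.23 and 1.21 (adjusted p = 1).
Vpreb1 was 6.33, 5.44 and 5.57 in sham C57BL/6J mice and 5.51, 5.79 and 6.27 at 15 Gy, a change of 0.08 against 2.6 in C57L/J (adjusted p = 0.545), and the sham mice of the strains lay further apart than the irradiated mice. Il6 was lower by 1.63 in C57BL/6J and higher by 2.57 in C57L/J (adjusted p = 0.568). Osgin1 (-0.04 against -1.15, adjusted p = 0.791), Adm (-0.19 against 1.04, adjusted p = 0.758), Bhlhe40 (0.1 against -0.91, adjusted p = 0.94) and Npas2 (0.14 against 1.82, adjusted p = 1) also passed the unadjusted limit for the difference between strains. Cd7 fell in both, by 1.2 in C57BL/6J and 2.56 in C57L/J (adjusted p = 0.758). Zfp319, a zinc finger gene that the study named, was lower by 1.03 in C57BL/6J and higher by 0.09 in C57L/J. Without the arrays that carried muscle, the differences for Osgin1 (-1, from -1.11), Adm (1.16, from 1.23), Il6 (3.66, from 4.2) and Npas2 (1.64, from 1.69) kept about their size. Those for Vpreb1 (2.9, from 2.52), Cd7 (-1.64, from -1.36) and Bhlhe40 (-1.28, from -1.01) were larger in size. With 1 irradiated C57BL/6J mouse left, that fit gives no measure of spread in that group. With all arrays none of these differences passed after adjustment over all genes.
The lists with the most differences between strains were immediate early genes, with 6 of 22, and neutrophil genes, with 5 of 21, against 0.737% of all genes; neither list held a gene that passed in C57L/J itself. These counts are from the fit that includes the arrays with muscle, and the order of the lists was not the same without them. Fos, an immediate early transcription factor gene, was 11.77, 11.12 and 10.58 in sham C57L/J mice and 11.83, 11.34 and 10.93 at 15 Gy. Its change was 0.21 in C57L/J and -2.16 in C57BL/6J (adjusted p = 0.649). The others were Egr1, Nr4a1, Nr4a2, Dusp1 and Klf2, whose changes lay between -0.1 and 0.56 in C57L/J and between -1.95 and -0.89 in C57BL/6J. Csf3r, the granulocyte colony-stimulating factor receptor gene, changed by -0.87 in C57L/J and 1.89 in C57BL/6J (adjusted p = 0.758). The other 4 neutrophil genes, Clec4d, Clec4e, Padi4 and Slfn4, changed by -0.2 to 1.28 in C57L/J and by 0.93 to 4.13 in C57BL/6J.

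**Figure D5:**
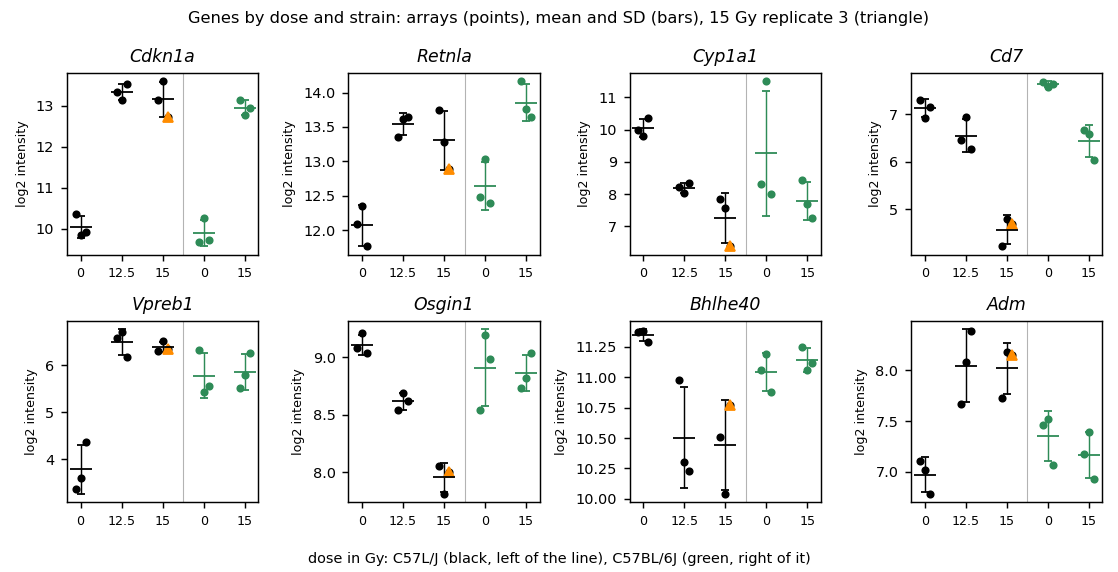
Log2 intensity of 8 genes on single arrays (points) by dose in Gy for C57L/J (black, left of the line) and C57BL/6J (green, right of it), with the mean and SD of 3 mice (bars) and 15 Gy replicate 3 of C57L/J as a triangle. Cdkn1a rises by about 3 units in both strains, while the mean of Cd7 at 12.5 Gy lies between the sham and 15 Gy means of C57L/J.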

How the data were processed

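The deposited values are linear intensities of Affymetrix mouse arrays, 1 per probe set, which the authors made with Affymetrix Expression Console 1.1 per the submitters' processing notes; the step from probes to probe sets was not given in the sources used here. On each array the 2% trimmed mean was 500, so intensities were already scaled, whereas the study's methods describe quartile normalization. Median intensity ran from 131.3 to 149.1 over the 6 arrays.

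Values under 1 (65 to 102 of 45101 per array) were set to 1 before log2. In all 34958 probe sets carried 1 symbol (34754 of them current), 932 several and 9211 none in the platform annotation used; for the 9012 genes with several probe sets, the brightest on average over 18 arrays (both strains) was used, which gave 18194 genes. Strain and dose groups came from the labels, and 0 value columns belonged to no sample. Correlations between the 6 arrays were 0.901 to 0.964, so none was a copy.

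Groups were compared by limma 3.58.1 (lmFit, eBayes; R 4.3.3), on the arrays of the groups compared only, at an unadjusted p under 0.01, the study's criterion, and a Benjamini-Hochberg adjusted p under 0.05. The test was tested on simulated data. Number of arrays limits the precision. Replicates are separate mice. Lists (48) were counted, not tested. The comparison, lists and tests were chosen with earlier results of these data known. Genes named were the 12 largest rises and 12 largest falls among genes that passed with and without 15 Gy replicate 3, did not overlap between groups and had a group mean of at least 6; up to 4 members of each list with the largest changes that passed in either fit; genes named by the study; and cell type markers. Other genes, such as Fos, Csf3r, Mdm2, Gtse1, Fas, Sesn1, Plk2, Gadd45a, Rprm, Cdh5 and Pecam1, were chosen after their values were seen. Promoter windows were matched by symbol, for 17 of 19, 12 of 15 and 14 of 18 genes of the p53 lists and 33 of 40 mitosis genes; the remaining ones were not analysed here. Alternatives were the random variance test of the study's methods, other arrays in the fit, array weights, a robust prior with an intensity trend, a fold limit, other probe set rules, a floor of 32, a level filter, median-centring, quantile normalization, a block for the replicate number, and each array left out. Leaving out both arrays with Rag1 was added after seeing the data.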

Additional observations from a re-analysis of the deposited data

How the results depend on the processing

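For 15 Gy against sham, counts at p under 0.01 (338) rose to 900 with all other arrays in the fit, 546 with the C57L/J arrays, 548 with array weights and 510 with a floor of 32, and fell to 193 with a log2 change of at least 1; leaving out single arrays gave 214 (without sham replicate 2) to 561 (without 15 Gy replicate 3). Adjusted counts, 0 in the fit reported, were 209, 30, 5 and 1 in the first 4 of these settings, 6 with an intensity trend and robust prior, 6 at a level of at least 6 and 1 after quantile normalization. Without replicate 3 (561), the count was 344 with a log2 change of at least 1 and 856 with the 18 arrays without skeletal muscle transcripts, and adjusted counts were 273 with all other arrays, 114 with the C57L/J arrays, 190 with trend and robust prior, 1 with a floor of 32, 74 at a level of at least 6 and 240 with the 18 arrays.
For 15 against 12.5 Gy (115), a level of at least 6 gave 56, leaving out the array with muscle 180, and leaving out single arrays 106 to 180. For the difference between strains (134), leaving out arrays with muscle gave 246 and leaving out single arrays 123 to 223. Replicate numbers did not pair the mice, since deviations of same-numbered sham and 15 Gy arrays correlated at -0.04, 0.01 and -0.07; with a replicate block the counts were 260 for 15 Gy against sham, 317 without replicate 3, 117 between doses and 138 between strains.
Of the calls of 109 named genes, the random variance test weakened 0, the replicate block 24 and the most variable probe set 18; leaving out single arrays weakened 23, 29 and 33 (sham replicates 1, 2 and 3) and 20, 20 and 10 (15 Gy replicates 1, 2 and 3). Where either value passed, directions turned with the most variable probe set for Cdca3 (0.58), Cdt1 (1.17), E2f1 (0.57), H2-DMa (0.65) and Slc7a11 (-0.57), with the mean of probe sets for Cdca3 (0.19), and without 15 Gy replicate 3 for Tnni2 and Pth, whose values with single arrays left out ran from -0.92 to 3.07 and from -2.89 to 4.14; Gria1, which passed in neither, also turned without that array (0.39). The causes were not tested.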
